A study of Mus musculus with 9 samples.

Results

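PIWI-interacting RNAs (piRNAs) are short RNAs, longer than microRNAs, that guide PIWI proteins to transposon transcripts and silence them. They are best known from the germ line, where their genomic sources are often clusters or transposon remnants. Outside the germ line, sequences catalogued as piRNAs can coincide with fragments of other abundant non-coding RNAs, so a piRNA label on a counted row is an annotation and not a measurement of PIWI binding.

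The rows described here carry the piRNA class in the deposited tables and have at least 50 counts in each of 9 libraries. They number 78 of 8357 piRNA-class rows listed in any library, and the tables list 14210 rows of all RNA classes. This minimum count chose the members, so their abundance is a description. The libraries are small RNA of exosomes, vesicles that cells release into their medium, from RAW264.7, an established mouse macrophage line. There were 3 groups of 3 libraries each: untreated cells, cells given silica for 24 h and cells given silica for 48 h. All groups grew in DMEM with fetal bovine serum, and silica is the mineral dust that causes silicosis. The sources used here give neither the silica dose nor how long the untreated cells were kept. Exosomes were isolated by ultracentrifugation, with no record in the labels of serum cleared of its own vesicles. The 3 libraries of a group are independent repetitions in the series' design text. The p-values measure the spread between them.

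The libraries held 7.7e+06 to 1.9e+07 counts, and values below are counts per 1000000 of that total (RPM). At these depths 50 counts correspond to 2.68 to 6.49 RPM. The 6 macrophage and myeloid marker miRNAs were detected in all 9 libraries, with a summed level of 30764 to 40360 RPM in untreated libraries, 18067 to 29641 RPM at 24 h and 32435 to 49220 RPM at 48 h. The 24 h libraries lay below all the others in this sum. Most of it came from miR-146a-5p and miR-21a-5p, and single markers did not all follow it. The level of miR-223-3p was 40.3, 62.4 and 21.2 RPM untreated and 59.7, 76.9 and 35.7 RPM at 24 h. That of miR-146a-5p was 25283, 7960 and 27705 RPM untreated and 17902, 16423 and 11721 RPM at 24 h. Of the 6 germ-line marker miRNAs, miR-871-3p, miR-741-3p, miR-743a-3p and miR-880-3p were at 0 in all 9 libraries, miR-34c-5p reached at most 12 counts, and miR-449a-5p lay between 49.8 and 107 RPM. The summed level of the 3 serum, liver and red cell marker miRNAs (miR-122-5p, miR-451a and miR-486a-5p) was 165 to 729 RPM in untreated libraries, 891 to 1413 RPM at 24 h and 521 to 612 RPM at 48 h. The 24 h libraries lay above all the others in this sum, which came mostly from miR-122-5p and miR-451a. In miR-122-5p alone they also lay above all the others. In miR-451a they lay above the untreated ones, but 48 h library 2 had 402 RPM and 24 h library 2 had 365 RPM. The level of miR-486a-5p was 3.57, 1.11 and 2.49 RPM untreated and 1.83, 2.15 and 1.82 RPM at 24 h.

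Of the 78 members, 9 are catalogued mouse piRNAs with mmu_piR identifiers and 69 are predictions of the authors, named novel_pir with a number. Each predicted row comes with a repeat family and the mm10 coordinates of a repeat window, not with a sequence or a length of its own. Many rows share a window, so they are not independent of each other. The 69 predicted members fell in 24 windows. The window at chr17:39842998-39843163 on the plus strand, 166 bases of a DNA/hAT-Tip100 repeat, held 21 members among 71 listed rows. Next came an LTR/ERVL-MaLR window at chr5:17118211-17118485 on the minus strand with 9 members of 21 rows. An LTR/ERVK window at chr5:57215739-57215800 on the plus strand held 6 members of 20 rows, an LTR/ERVL window at chr3:134773527-134774074 on the minus strand 5 of 23, and a LINE/L2 window at chr14:54533068-54533133 on the plus strand 3 of 28. These 4 windows lie between genes of the GENCODE M21 annotation. Of the remaining 19 windows, 6 held 2 members and 13 held 1.

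The chr17 window overlaps the exon of Gm26917, a long intergenic non-coding RNA gene at chr17:39843013-39846341 on the same strand. In RefSeq, Rn18s-rs5, an 18S ribosomal RNA pseudogene, starts 13 bases past the end of Gm26917 and 3191 bases past the window. The window at chr12:36816249-36816418 on the plus strand, which holds novel_pir3352, overlaps the last 30 bases of the Mir5099 hairpin. Both stretches are printed because they show which annotated transcripts lie within or reach into windows of rows called piRNA. Where in its window a row lies is not in the tables. The first is the part of the chr17 window inside Gm26917, 151 bases from chr17:39843013-39843163, plus strand of mm10, from GENCODE M21, with a GC content of 68.2%. The second is the Mir5099 hairpin, 74 bases from chr12:36816205-36816278, plus strand of GRCm38.p6, from RefSeq, with the 30 bases inside the window in capitals.
Gm26917 part of the window: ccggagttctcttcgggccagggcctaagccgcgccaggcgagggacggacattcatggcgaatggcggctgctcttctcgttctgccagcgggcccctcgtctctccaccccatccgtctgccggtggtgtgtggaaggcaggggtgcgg
Mir5099 hairpin: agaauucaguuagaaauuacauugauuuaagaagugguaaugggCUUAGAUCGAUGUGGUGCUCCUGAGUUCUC

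Repeat families were represented unevenly among the members. The DNA/hAT-Tip100 family held 31.9% of the 69 predicted members, 21 of its 22 in the chr17 window, against 1.36% of the 8044 predicted rows listed. LINE/L1, a retrotransposon family still active in mice, held 4.35% of predicted members and 30.6% of predicted rows listed. LTR elements of all families held 59.4% of members and 63.9% of rows. Several single-member windows lie in introns of protein-coding genes, among them Tdrd9, Cadm2, Trpm3, Osbpl2, Dab1, Def8 and Otc. Tdrd9 encodes a Tudor-domain protein of the germ-line piRNA pathway itself, and its intron holds the window of novel_pir3335 at chr12:112020537-112020889 on the strand opposite to the gene.

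The minimum of 50 counts cut through a continuous distribution. Just inside it, novel_pir4197 and novel_pir5873 had 50 counts in their lowest library and novel_pir6738 had 51. Just outside, novel_pir1908 and novel_pir519 had 48 and novel_pir4397 had 47. The number of piRNA-class rows was 141 with at least 20 counts in every library and 51 with at least 100, and 6109 rows were listed in 1 library only. Of 67 rows that reached 1000 counts in any library, 18 were not members. Among these, novel_pir7768, from an LTR/ERV1 window at chr9:78248505-78248694 that also holds 2 members, had 31357 counts in 48 h library 1 and was unlisted in at least 1 library.

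Members held 76.6% to 83.5% of the piRNA-class counts of each library. The piRNA class as a whole took 1.65% to 4.50% of all counted reads. Its share was 2.21% ± 0.573 (SD, n = 3) in untreated libraries, 2.69% ± 0.259 at 24 h and 2.83% ± 1.45 at 48 h. In two-sided exact permutation tests, the share gave p = 0.3 for 24 h against untreated, p = 0.7 for 48 h against untreated and p = 1.0 for 48 h against 24 h. With 3 libraries against 3, the smallest p these tests can give is 0.1. Adjusted over the 3 comparisons by Benjamini-Hochberg, these were 0.9, 1 and 1. The members alone took 1.72% ± 0.477 (SD, n = 3) of reads in untreated libraries, 2.20% ± 0.211 at 24 h and 2.35% ± 1.22 at 48 h.

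The wide spread at 48 h came with 1 row in 1 library. In 48 h library 1 members took 3.75% of reads, and mmu_piR_000935 supplied 58.7% of the member counts. In 48 h libraries 2 and 3 the members' share was 1.63% and 1.66%. Leaving mmu_piR_000935 out of the counts in all libraries gave a members' share of 1.60% ± 0.450 (SD, n = 3) untreated, 2.18% ± 0.237 at 24 h and 1.54% ± 0.0734 at 48 h.

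The sources of the member counts differed between groups more visibly than their sum. The chr17 window supplied 35.04%, 41.6% and 42.4% of member counts in untreated libraries 1 to 3. At 24 h it supplied 67.5%, 50.4% and 74.5%, and at 48 h 6.15%, 28.8% and 41.6%. All 24 h libraries lay above all libraries of both other groups. The chr5 MaLR window supplied 17.5% to 36.1% in untreated libraries, 7.24% to 25.8% at 24 h and 21.3% to 30.1% at 48 h, with overlap between groups. The 9 catalogued piRNAs supplied 4.79% to 60.9%, lowest in 24 h library 3 and highest in 48 h library 1. These shares sum to a whole within a library, so a higher share of 1 source lowers the others.

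**Figure D1:**
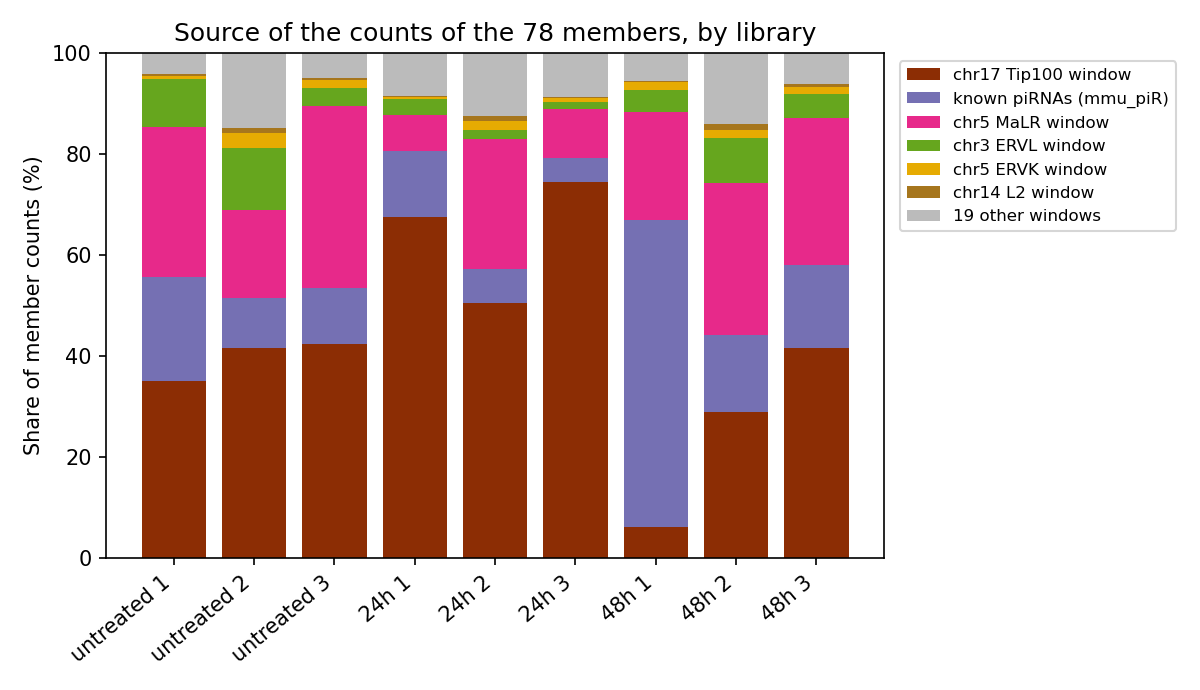
Share of the counts of the 78 members (vertical axis, percent) by source in each of 9 libraries; colours mark the 5 windows with at least 3 members, the 9 catalogued piRNAs and the 19 other windows. The chr17 window supplies 50.4% to 74.5% in the 24 h libraries, and the catalogued piRNAs supply 60.9% in 48 h library 1.

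Single members varied widely between libraries. The ratio of the highest to the lowest library, in RPM, ran from 2.31 to 1087 over the 78 members, with a median of 7.15. Within a group, the largest ratio of a member had a median of 4.19 over the members and reached 88.6. Mean levels over the 9 libraries ran from 8.23 to 3210 RPM, with a median of 60.4. Since row lengths are not in the tables, the order of levels is an order of reads per row.

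The most abundant member was novel_pir7096 of the chr5 MaLR window, with a mean of 3210 RPM. It stood at 4036, 1730 and 3255 RPM in untreated libraries 1 to 3, at 1164, 3871 and 1466 RPM at 24 h, and at 6531, 3189 and 3649 RPM at 48 h. The groups overlapped, and 24 h library 2 lay apart from the other 24 h libraries, near the untreated values. Over the 9 libraries, the row of another RNA class whose log2(RPM + 1) followed it most closely among 1005 rows was vault RNA, a small RNA of the vault ribonucleoprotein particle (Pearson r = 0.946). This is a description of rows that share libraries and depth.

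The second was the catalogued mmu_piR_000935, with a mean of 3206 RPM. It had 1549, 1418 and 824 RPM in untreated libraries, 20.3, 528 and 162 RPM at 24 h, and 22032, 249 and 2071 RPM at 48 h. All 24 h values lay below the untreated ones, while the 48 h libraries spanned an 88.6-fold range, the largest within any group for any member. Its mean of 8117 ± 12085 RPM (SD, n = 3) at 48 h therefore rests on library 1. Among the same 1005 rows, the closest of another class was SNORD43 (Pearson r = 0.946 over 9 libraries). It is a small nucleolar RNA of the box C/D type that guides methylation of ribosomal RNA. The r is the highest of those 1005 rows and is a description only.

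Another catalogued piRNA, mmu_piR_025576, had a largest within-group ratio of 72.7, and its groups overlapped. It stood at 1480, 94.3 and 182 RPM in untreated libraries, 2255, 42.5 and 31.0 RPM at 24 h, and 140, 1701 and 136 RPM at 48 h. Each group thus held 1 library far above the rest: library 1 of the untreated and 24 h groups, and library 2 of the 48 h group. The Tdrd9-intron row novel_pir3335 had 161, 1974 and 201 RPM untreated, 647, 1253 and 625 RPM at 24 h, and 1152, 936 and 375 RPM at 48 h. Its highest value was in untreated library 2, which held the highest value of 16 of the 78 members.

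**Figure D2:**
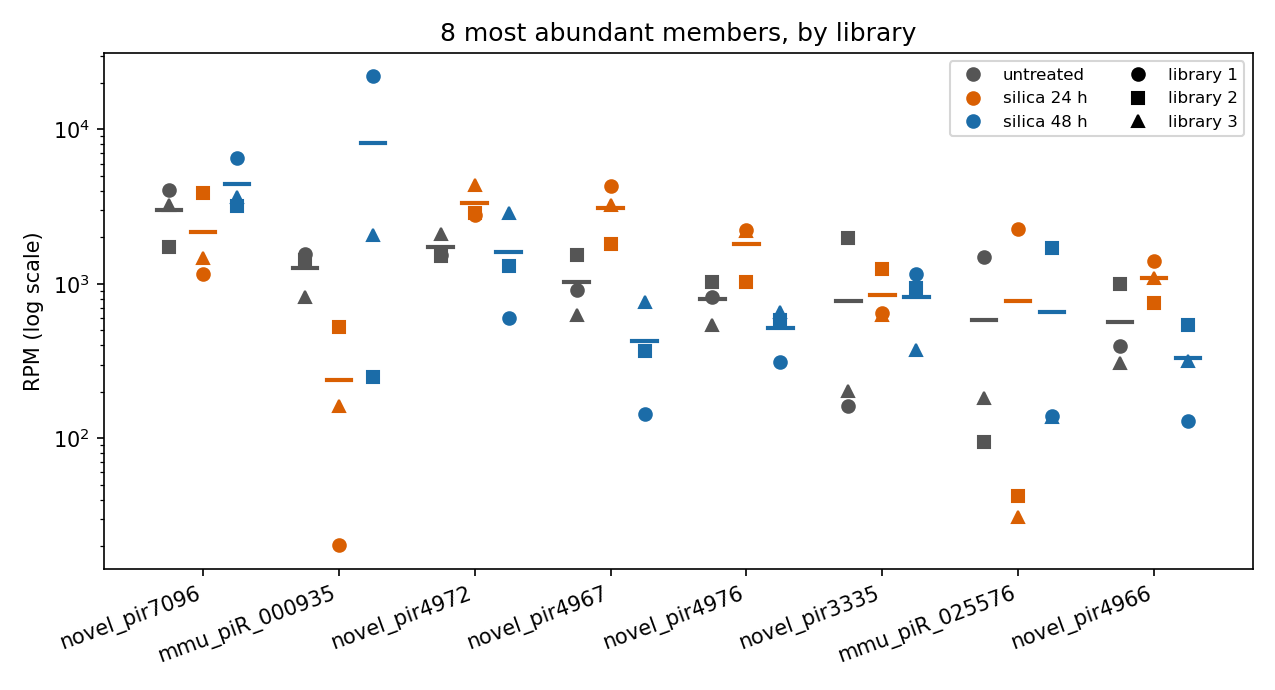
RPM on a log scale (vertical axis) of the 8 members with the highest mean level, by group (colour) and library number (marker shape); horizontal lines are group means of 3 libraries. For novel_pir4967 and novel_pir4972 all 24 h libraries lie above the untreated ones, and for mmu_piR_000935 the 48 h libraries run from 249 to 22032 RPM.

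In the chr17 window, novel_pir4972 was the most abundant row. It had 1539, 1519 and 2101 RPM in untreated libraries, 2776, 2870 and 4358 RPM at 24 h and 603, 1300 and 2891 RPM at 48 h. The 24 h libraries all exceeded the untreated ones, and 48 h library 3 reached into the 24 h range. Its closest row of another class among the 1005 searched was the predicted miRNA novel_mir727 (Pearson r = 0.911 over 9 libraries), again as a description.

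The next row, novel_pir4967, had 917, 1545 and 632 RPM in untreated libraries, 4291, 1800 and 3248 RPM at 24 h and 143, 369 and 763 RPM at 48 h. Here the 24 h libraries lay above all others. The 2 rows of this window did not move by the same factor. The count of novel_pir4967 divided by that of novel_pir4972 was 0.596, 1.02 and 0.301 in untreated libraries, 1.55, 0.627 and 0.745 at 24 h, and 0.237, 0.284 and 0.264 at 48 h. The ratio was lower in every 48 h library than in any other library. A ratio within a library does not depend on scaling. The row novel_pir4987 had 425, 273 and 568 RPM untreated, 757, 622 and 1233 RPM at 24 h and 174, 174 and 680 RPM at 48 h. Its count divided by that of novel_pir4972 stayed between 0.134 and 0.288 in all 9 libraries.

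Other abundant rows of the window were novel_pir4976, novel_pir4966, novel_pir4971 and novel_pir4973. The level of novel_pir4976 was 816, 1030 and 537 RPM untreated, 2238, 1021 and 2193 RPM at 24 h and 314, 583 and 657 RPM at 48 h. That of novel_pir4973 was 284, 623 and 190 RPM untreated, 1216, 932 and 928 RPM at 24 h and 87.8, 179 and 243 RPM at 48 h. In novel_pir4973 the 24 h libraries were above all others, and in novel_pir4976 the 24 h library 2 fell just under the highest untreated one. Group means of novel_pir4966 were 567 ± 373 RPM untreated, 1087 ± 329 RPM at 24 h and 329 ± 205 RPM at 48 h (SD, n = 3). Those of novel_pir4971 were 721 ± 673, 760 ± 254 and 356 ± 262 RPM, with untreated library 2 highest at 1496 RPM.

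Over all 71 listed rows, the chr17 window summed to 6912 ± 2112 RPM (SD, n = 3) in untreated libraries, 14333 ± 3706 RPM at 24 h and 4706 ± 2281 RPM at 48 h. The lowest 24 h library had 10058 RPM and the highest untreated one 9334 RPM, so the groups were separate by a narrow margin. The mean at 24 h was 2.07 times the untreated mean, and the mean at 48 h was 0.328 times the 24 h mean, also without overlap. The summed serum, liver and red cell markers were also highest at 24 h and the summed macrophage and myeloid markers lowest, and their part in this result was not tested. The rRNA class, given because of the neighbouring ribosomal pseudogene, took 3.73% to 5.98% of reads in untreated libraries, 2.28% to 3.803% at 24 h and 3.05% to 5.83% at 48 h. Its part in the result was not tested.

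**Figure D3:**
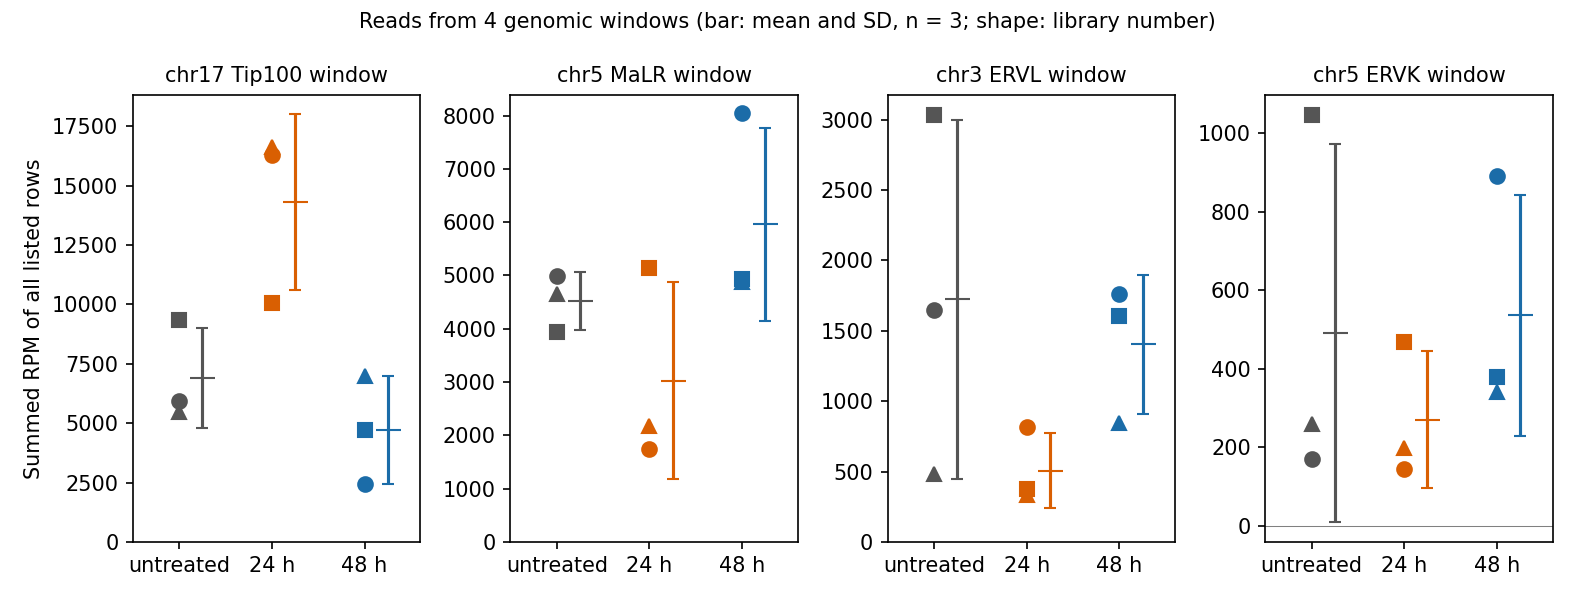
Summed RPM of all listed rows of 4 windows (vertical axes, separate scales), by group; marker shape is the library number and the bars are mean and SD of 3 libraries. The chr17 window is highest at 24 h (14333 ± 3706 RPM), while the chr3 ERVL window is lowest there (507 ± 267 RPM) with 1 untreated library among the 24 h values.

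The first comparison asked how exosomal small RNA differed after 24 h of silica. More members were higher than lower at 24 h: 51 of 78 had a log2 fold change above 0, where 53.9% of the 2110 rows tested did, and 27 were lower. The direction followed the window. All 21 members of the chr17 window were higher, and all 9 of the chr5 MaLR window and all 5 of the chr3 ERVL window were lower. The median log2 fold change was 0.51 over the members and 0.14 over all rows tested. It was 1.16 in the chr17 window, -0.52 in the chr5 MaLR window, -0.83 in the chr5 ERVK window (1 of 6 higher), -1.34 in the chr3 ERVL window and 1.03 in the 19 other windows (22 of 25 higher). The serum, liver and red cell marker sum was also higher in all 24 h libraries than in all untreated ones (891 to 1413 against 165 to 729 RPM), and the macrophage and myeloid sum was lower (18067 to 29641 against 30764 to 40360 RPM). The part of either in these values was not tested.

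In the quasi-likelihood test of edgeR, 0 of the 78 members had an adjusted p under 0.05 (0% of all rows did), and the lowest adjusted p of a member was 0.751. At an unadjusted p under 0.05 there were 17 members, 13 higher and 4 lower, where 6.07% of all rows passed. DESeq2, which gave an adjusted p for 75 of the members, called 0 of them (0.751% of its rows), and limma-voom called 0. The groups did not overlap for 18 members that were higher, where 9.53% of all rows were, and for 5 that were lower, where 3.89% were. In either direction this is 29.5% of members against 13.4% of all rows tested. Rows from the same 166 bases made up 9 of the 18 higher members. The median SE was 0.74 over members and 1.82 over all rows, so members and all rows are of unlike depth in these shares. Part of the excess of members can come from that. When only the 813 rows listed in all 9 libraries were fitted, 18 members had an unadjusted p under 0.05. The share of rows passing was then above the 6.07% of all rows.

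Among the named members, novel_pir4829 had the lowest p. This LTR/ERV1 row lies between genes at chr17:94682843-94682962, far from the hAT-Tip100 window. It had 15.01, 15.4 and 9.09 RPM in untreated libraries and 35.7, 51.3 and 44.4 RPM at 24 h, with no overlap. Its log2 fold change was 1.73 (SE 0.61, edgeR adjusted p = 0.751). For novel_pir4974 of the chr17 window, levels were 127, 123 and 76.6 RPM untreated and 306, 171 and 363 RPM at 24 h, a log2 fold change of 1.36 (SE 0.53). The other named rows of that window, novel_pir4973 and novel_pir4967, had log2 fold changes of 1.49 (SE 0.59) and 1.59 (SE 0.64). An LTR/ERV1 row on chr11, novel_pir2879, had 35.3, 123 and 30.5 RPM untreated and 269, 171 and 153 RPM at 24 h, a log2 fold change of 1.65 (SE 0.66). All 5 had the same adjusted p of 0.751, and in each the 24 h libraries lay above the untreated ones.

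The 5 members with lower, separate groups at 24 h were mmu_piR_000935, novel_pir7041, novel_pir7100, novel_pir7103 and novel_pir6430. The ERVK row novel_pir7041 had 33.8, 95.7 and 85.3 RPM untreated and 8.0, 25.6 and 10.8 RPM at 24 h (log2 fold change -2.27, SE 0.92). The MaLR row novel_pir7103 had 363, 314 and 632 RPM untreated and 84.6, 265 and 146 RPM at 24 h (log2 fold change -1.40, SE 0.57). For novel_pir7100 of the same window the margin was narrow, with a highest 24 h value of 77.9 RPM and a lowest untreated value of 79.2 RPM. The ERVL row novel_pir6430 had 390, 386 and 280 RPM untreated and 246, 110 and 149 RPM at 24 h. For mmu_piR_000935 the log2 fold change was -2.41. Neither direction was shared by the whole set of long terminal repeat rows, since the LTR/ERV1 members novel_pir4829 and novel_pir2879 were higher at 24 h.

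**Figure D4:**
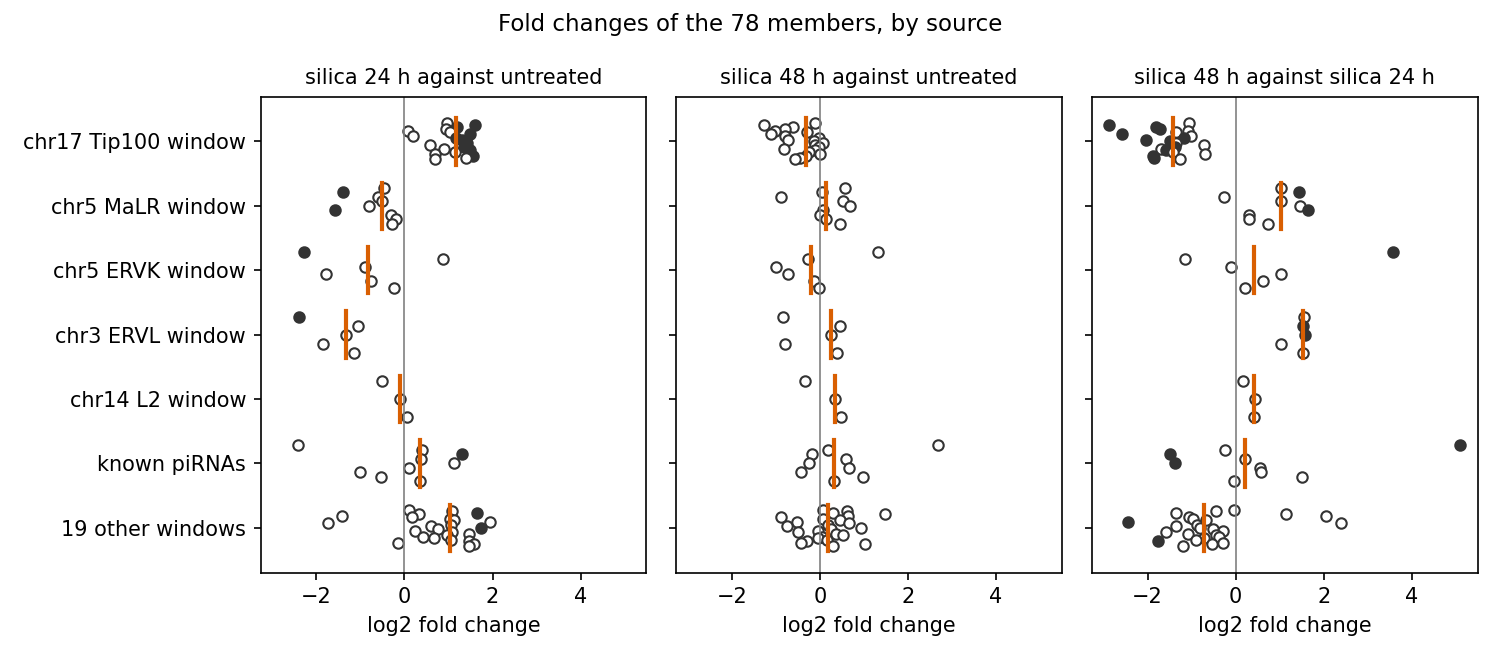
Log2 fold change (horizontal axes) of each of 78 members in 3 comparisons, by source; filled points have an unadjusted p under 0.05 in edgeR's test, and orange lines are medians. In the left panel the chr17 window lies to the right of 0 (median 1.16) and the chr3 ERVL window to the left (median -1.34); no member passed an adjusted p of 0.05.

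The less well counted rows of the chr17 window did not show the shared direction of its members. Of the 50 listed rows of the window that are not members, 24 passed the filter on low counts. At 24 h 11 of these were higher and 13 lower, with a median log2 fold change of -0.23. Their directions are less certain than those of members. Over all tested piRNA-class rows that are not members the median SE was 2.28, against 0.74 over members. In the chr5 ERVK window, 10 of 12 tested rows that are not members were lower, as were all 5 in the chr5 MaLR window.

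Scaling and single libraries moved these counts. With TMM factors in place of library totals, the median over all rows tested at 24 h went from 0.14 to -0.18, the members' median was 0.18, and 43 members were higher. Across the 22 alternative settings, 19 to 21 of the 21 chr17 members were higher at 24 h and none of the 5 chr3 members was. Untreated library 2 weighed most. Without it the members' median was 1.08, against 0.24 over all rows, and 61 of 78 members were higher. By number and median of members, the direction of both chr5 windows rested on that library: without it, 5 of 9 MaLR members were higher with a median of 0.25, and 3 of 6 ERVK members with a median of 0.59. The lower mean of the summed MaLR window at 24 h did not rest on it. The MaLR sums were 4990, 3931 and 4645 RPM in untreated libraries 1 to 3. At 24 h they were 1747, 5140 and 2181 RPM, so the groups overlapped.

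After 48 h of silica, members differed little from untreated libraries in number or direction. Of the 78, 38 had a log2 fold change above 0, against 43.5% of all rows, and the median was -0.01, against -0.12 over all rows. With edgeR 0 members passed an adjusted p of 0.05 (0% of all rows), and 0 had an unadjusted p under 0.05, a level at which 3.27% of all rows passed. DESeq2 (0.294% of its rows) and limma-voom called 0 members as well. The lowest adjusted p was 1. Groups were separate for 2 members, or 2.56%, against 3.93% of all rows. They were novel_pir4829, higher where 1.61% of all rows were, at 26.7, 25.2 and 23.0 RPM at 48 h above the untreated values given earlier, and novel_pir4986 of the chr17 window, lower where 2.32% were. The latter had 173, 147 and 141 RPM untreated and 71.4, 74.4 and 134 RPM at 48 h.

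Of the chr17 members 20 of 21 were lower at 48 h, with a median of -0.32, and the groups of 1 of them were separate. With each library left out in turn, and under the other settings, 0 to 9 of the 21 were higher; the 9 came without 48 h library 2. For novel_pir4967 the log2 fold change was -1.28 (SE 0.64) and for novel_pir4973 -1.10 (SE 0.58), with overlapping groups. The catalogued mmu_piR_000935 had a log2 fold change of 2.68 (SE 1.34), which was -0.12 without 48 h library 1. The ERV1 row novel_pir7761 of the chr9 window had 35.7, 144 and 9.1 RPM untreated and 353, 134 and 36.5 RPM at 48 h (log2 fold change 1.47, SE 0.99). That value was 0.43 without 48 h library 1, 0.95 without untreated library 3 and 2.96 without untreated library 2. The row novel_pir4829 had 0.92 (SE 0.59). The adjusted p was 1 for each.

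The 24 h and 48 h libraries differed from each other in more members than either differed from untreated libraries, by counts of non-overlapping groups. Of the 78, 28 were higher at 48 h than at 24 h, against 41.2% of all rows, and 50 were lower, with a median log2 fold change of -0.52 against -0.38 over all rows. The groups did not overlap for 6 members that were higher at 48 h (3.93% of all rows) and 25 that were lower (12.3% of all rows), together 39.7% of members against 16.3% of all rows. At an unadjusted p under 0.05 there were 21 members, 6 higher and 15 lower, where 9% of all rows passed. In a fit of only the 813 rows listed in all 9 libraries, 13% of rows and 21 members passed. The median SE was 0.74 over members and 1.83 over all rows, so these shares compare unlike depths. With edgeR 0 members passed an adjusted p of 0.05 (0% of all rows), the lowest being 0.399. DESeq2 called 4 of 75 members, where 1.82% of its rows were called: mmu_piR_000935 and novel_pir7041, higher at 48 h, and novel_pir4967 and novel_pir4973, lower, while limma-voom called 0. The comparisons share libraries, so the 3 sets of counts are not independent.

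All 21 chr17 members were lower at 48 h than at 24 h, with a median log2 fold change of -1.42, and 15 of them had separate groups. This count of 21 held under all 22 alternative settings. The lowest p values were those of novel_pir4967 (log2 fold change -2.87, SE 0.67) and novel_pir4973 (-2.59, SE 0.61), both with an edgeR adjusted p of 0.399. In novel_pir4986, at 446, 180 and 513 RPM at 24 h, it was -2.03 (SE 0.57), and in novel_pir4976 it was -1.81 (SE 0.52), with adjusted p of 0.473 and 0.481. Groups did not overlap in these 4 rows.

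All 5 members of the chr3 ERVL window were higher at 48 h than at 24 h, with a median of 1.53, and 8 of 9 in the chr5 MaLR window were, with a median of 1.04. The MaLR median was 0.43 without 48 h library 2, 0.64 without 24 h library 1 and 1.76 without 24 h library 2. The ERVK row novel_pir7041 had 398, 29.4 and 106 RPM at 48 h, all above the 24 h values, and a log2 fold change of 3.59 (SE 0.97, adjusted p = 0.461). Without 48 h library 1 this value was lower, at 2.20. For mmu_piR_000935 the log2 fold change was 5.10 (SE 1.49, adjusted p = 0.481), and its groups overlapped. In the 19 other windows 22 of 25 members were lower at 48 h, with a median of -0.73.

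The 9 catalogued piRNAs shared no direction. At 24 h, 6 were higher than in untreated libraries and 3 lower, and at 48 h again 6 and 3. Outside mmu_piR_000935, the clearest differences were in mmu_piR_000818 and mmu_piR_037320. The level of mmu_piR_000818 was 113, 258 and 135 RPM untreated, 513, 249 and 487 RPM at 24 h, and 188, 80.8 and 174 RPM at 48 h. That of mmu_piR_037320 was 43.3, 71.0 and 64.1 RPM untreated, 168, 137 and 85.1 RPM at 24 h, and 26.9, 61.1 and 63.0 RPM at 48 h. In both the 48 h libraries lay below the 24 h ones, and in mmu_piR_037320 the 24 h libraries also lay above the untreated ones. The steadiest of the 9 was mmu_piR_026137, with group means of 13.3 ± 2.21, 16.96 ± 4.62 and 16.6 ± 6.63 RPM (SD, n = 3).

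The row whose 170-base window overlaps the Mir5099 hairpin by 30 bases can be set beside the miRNA itself. Mature miR-5099 had 1809, 810 and 649 RPM in untreated libraries, 3149, 1917 and 2239 RPM at 24 h, and 870, 321 and 795 RPM at 48 h. For novel_pir3352 the values were 6.28, 5.22 and 35.7 RPM untreated, 48.2, 11.4 and 40.7 RPM at 24 h, and 12.5, 3.70 and 17.3 RPM at 48 h. For both, the 24 h mean was the highest of the 3 groups. The groups at 24 h and untreated were separate for miR-5099 and overlapped for novel_pir3352. The sources used here do not say whether the same reads were counted in both rows.

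Members of 1 window also peaked in the same libraries. Of the 21 chr17 members, 9 were highest in 24 h library 1 and 10 in 24 h library 3, and 11 were lowest in 48 h library 1. Untreated library 2 held the highest value of 4 of the 5 chr3 members and 4 of the 6 chr5 ERVK members. Over all members, 24 h library 1 held the highest value of 20 and 24 h library 3 of 15, while untreated library 3 held the lowest value of 18. In 2 rows of an ERVK window on chr14, novel_pir4196 and novel_pir4197, untreated library 2 and 48 h library 2 stood apart together: novel_pir4196 had 213 and 356 RPM there and 10.4 to 53.1 RPM in the other 7 libraries.

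**Figure D5:**
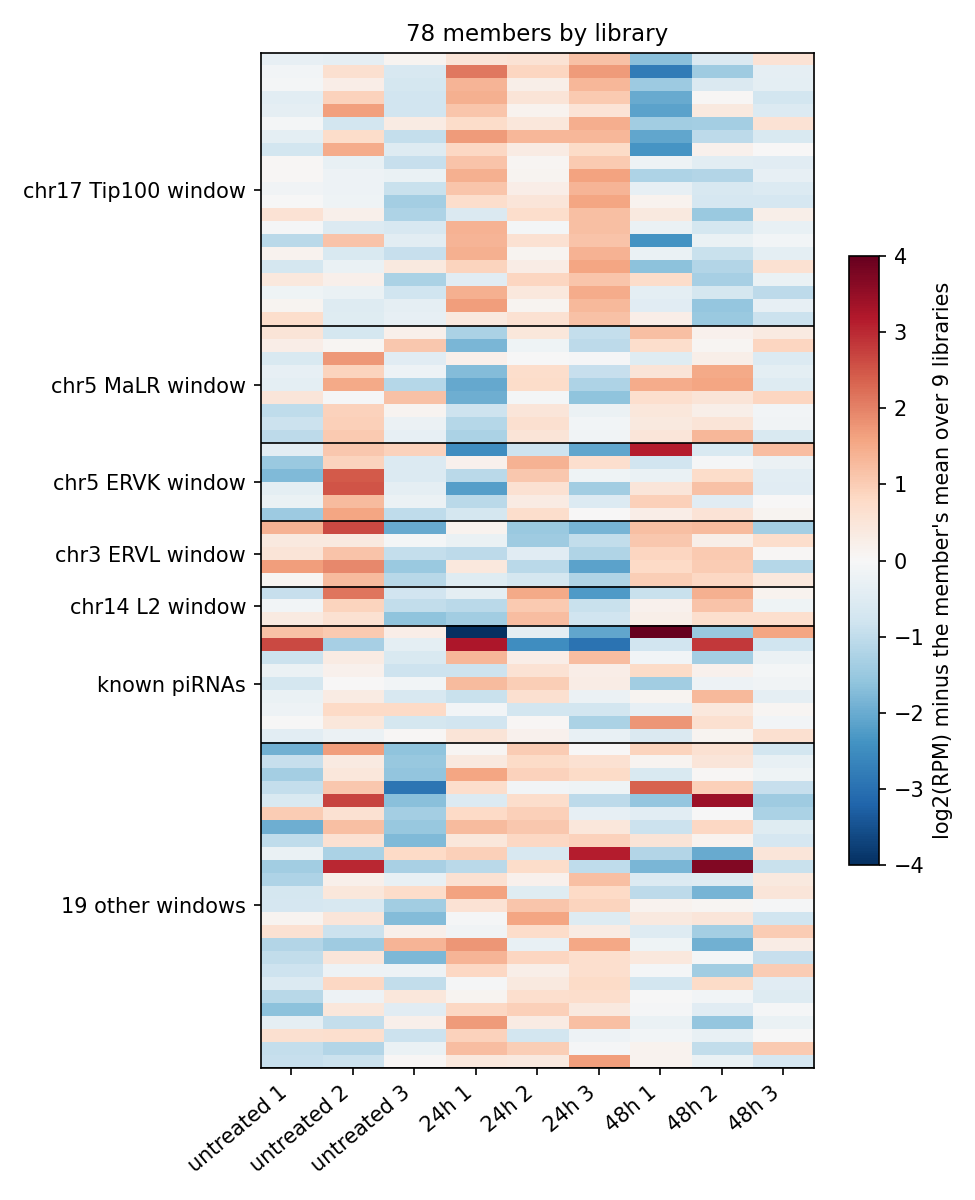
Log2(RPM) of each of 78 members (rows, grouped by source and sorted by mean level) minus its own mean over the 9 libraries (columns); red is above and blue below that mean, on a scale from -4 to 4. The chr17 rows are mostly red in 24 h libraries 1 and 3, and the first catalogued piRNA row, mmu_piR_000935, is blue in 24 h library 1 and red in 48 h library 1.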

How the data were processed

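Each library had its own table. Per the file headers, it gives a read count per small RNA row and a value called TPM, which the authors computed as the count divided by the header's total, in other words RPM (matched within 0.005, no length correction). Trim Galore, Bowtie, HTSeq and mm10 are named in the submitters' processing notes, with no versions; the sources used here do not say how multi-mapping reads were handled. Predicted piRNAs are listed from 10 counts and catalogued ones from 1; an unlisted row was taken as 0.

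Members are piRNA-class rows with at least 50 counts in all 9 libraries. The members, lists and tests were chosen with earlier results of these data known. The deposited counts of the 14206 named rows of all RNA classes were fitted together with edgeR 4.0.16 (R 4.3.3): library size the header total, filterByExpr with a minimum count of 10 (2110 rows kept, all 78 members among them; the kept rows hold at least 99.16% of the named-row counts), quasi-likelihood test without a block over 9 libraries (6 residual degrees of freedom), Benjamini-Hochberg over the 2110 rows, threshold 0.05. The 4 aggregate rows (exon, intron, repeat, intergenic) counted only toward library size. The common dispersion had a square root of 1.371. The test was checked on simulated data with a smaller dispersion than this. That check does not show how the test performs at the spread of these data. The piRNA-class share was compared by exact permutation tests; the members' share, planned with the same test, is given without a p because its rows were chosen on counts. Likeness of rows is Pearson's r of log2(RPM + 1).

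Replicate numbers in the titles were checked for pairing by the correlation of deviations from group means. Between untreated and 24 h libraries of equal number the correlation was 0.058, 0.295 and 0.240 in turn; between untreated and 48 h libraries it was 0.130, 0.548 and 0.352; between 24 h and 48 h libraries it was -0.098, 0.233 and 0.138. Between libraries of unequal number it ran from -0.265 to 0.047, from -0.461 to 0.153 and from -0.270 to 0.124 in the same order of comparisons. All 3 values of equal number exceeded 0.1 only for 48 h with untreated. For 24 h with untreated, all 3 exceeded every value of unequal number. The labels state no pairing, so the main test has no block, and a fit with the replicate number as a block is among the other settings. Libraries of a group were no duplicates (chi-square per degree of freedom of 82.2 to 912).

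Named are the 10 members with the highest mean RPM, the 5 with the lowest p in each comparison, the member with the largest ratio within a group, rows beside the minimum count, and the closest rows of other classes to the 3 most abundant members. Other rows named (novel_pir3352, novel_pir4196, novel_pir4197, novel_pir6430, novel_pir7100, novel_pir7103, novel_pir7768, mmu_piR_000818, mmu_piR_026137, mmu_piR_037320) were chosen after their values were seen.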

Additional observations from a re-analysis of the deposited data

How the results depend on the processing

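Fold changes were recomputed under 22 other settings (scalings, DESeq2, limma-voom, no filter, fewer rows or groups, the replicate number as a block, each library left out). Of these, 2 were chosen after seeing the data: only rows listed in all 9 libraries, and leaving out untreated and 48 h libraries 2 together. The shares without mmu_piR_000935 were also chosen then. With no filter, 1 member was called at 24 h and 1 at 48 h against untreated, both times mmu_piR_000935, and 2 at 48 h against 24 h, that row and novel_pir4967; of all 14206 rows this setting called 0.0845%, 0.0352% and 0.176%. DESeq2 called 4 at 48 h against 24 h: mmu_piR_000935, novel_pir4967, novel_pir4973 and novel_pir7041 (1.82% of its rows). The other settings called 0 members. With the replicate block 0 members were called in all 3 comparisons, where 0.0474%, 0% and 0.19% of all rows were. No call of a member changed. With this block 26, 1 and 35 members had an unadjusted p under 0.05, as did 7.87%, 2.32% and 11.4% of all rows. Signs were followed for 15 fold changes only, those of the members with the lowest p in each comparison. Of their 330 values under the 22 settings, 329 kept the sign. The 15 were chosen by p in these same data, which favours a stable sign, so this count is no independent check. Other fold changes of members named in the text were not in it. The fold change of mmu_piR_000935 at 48 h against untreated became -0.12 without 48 h library 1, with a range of -0.12 to 3.34 as libraries were left out.

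The log2 ratio of the piRNA-class share, 0.36 for 48 h against untreated, became -0.047 without mmu_piR_000935 and ran from -0.15 to 0.56 with libraries left out in turn. For 48 h against 24 h it went from 0.07 to -0.14 over mature miRNA counts, to -0.40 without mmu_piR_000935, and ran from -0.43 to 0.27 with libraries left out. The log2 ratio of the members' share went from 0.09 to -0.50 without that row and ran from -0.42 to 0.30 with libraries left out. The lowest values of these ranges are those without 48 h library 1; the cause was not tested.

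The minimum of 50 counts was the rule for members, so their depth is no result. The median SE of a member's log2 fold change at 24 h was 0.74, against 1.82 over all rows tested.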
